A study of Mus musculus with 2 samples.

Results

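The genes described here are 36 genes of liver-secreted proteins, out of 32100 annotated mouse genes other than pseudogenes. They were given by name and encode carriers and binders of the blood plasma (Alb, Afp, Ttr, Trf, Hp, Hpx, Ambp, Cp and Rbp4), the fibrinogen chains (Fga, Fgb and Fgg), clotting factors (F2, F5, F7, F10, F11, F12, F13b and Kng1), clotting inhibitors and the plasmin system (Plg, Serpinc1, Serpind1, Serpinf2 and Proc), complement (C3, C4b, Hc, C8a, C9, Cfb and Vtn) and binders of hyaluronan and mineral (Itih1, Itih2, Itih3 and Ahsg). Each gene was followed from 5 kb before its annotated 5′ end to its annotated end. Of the 36 genes, 34 held at least 1 CpG that both libraries covered with 5 reads or more, 1308 CpGs in all. A CpG here is the cytosine of 1 strand, so a site read on both strands counts once for each strand. Serpind1 (heparin cofactor) and Cp (ceruloplasmin) held none.

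Reduced representation bisulfite sequencing (RRBS) cuts DNA with MspI at CCGG and reads unconverted cytosines of the short fragments as methylated. The DNA came from the livers of male C57BL/6 mice aged 3 months, WT or homozygous for the Uhrf1 YP187/188AA knock-in (KI), which changes the domain of Uhrf1 that binds H3 methylated at K9. The livers of 3 mice were pooled for each genotype, so each genotype is 1 library. One label gives the genotype of the KI library as knock out, where its title has KI. The study asked how far this binding contributes to the upkeep of DNA methylation.

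Hepatocytes make most of the proteins of blood plasma. Liver-enriched transcription factors, among them HNF1, HNF4 and C/EBP, drive these genes from promoters that mostly lack CpG islands, and the DNA around such promoters is usually less methylated in liver than in tissues where the genes are silent. Uhrf1 brings Dnmt1 to newly replicated DNA, where methyl groups are copied to the new strand.

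Over the 2640351 CpGs read at least 5 times in both libraries, the median coverage was 37 reads in WT and 37 in KI, and the mean methylation was 45.5% in WT and 42.6% in KI. Coverage summed over all listed CpGs was 192144002 in WT and 173109895 in KI. Every read was counted as a molecule of its own in the errors, intervals and tests. PCR copies cannot be told from separate molecules here, and neighbouring CpGs share reads, so intervals and limits cover counting error only and the p-values are too small. With 1 library per genotype there is no spread between animals, and a test compares these 2 libraries, not the genotypes. Bulk liver holds several cell types, and a change of methylation in hepatocytes and a change of the cell mixture cannot be told apart.

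The CpGs of 6 fragments or stretches on which the results below turn are shown first. All were read from mm9 on the strand of the gene, and capitals mark the CpGs that both libraries covered with 5 reads or more on at least 1 strand. The first 3 lie in the early part of Ahsg, Rbp4 and C4b, where the losses were wide. Fgb is shown directly before the 5′ end of the gene, Afp is shown 4.7 to 4.9 kb before it, and the intron of Trf is shown because its strands went apart.
Ahsg, intron, chr16:22893513-22893677, + strand: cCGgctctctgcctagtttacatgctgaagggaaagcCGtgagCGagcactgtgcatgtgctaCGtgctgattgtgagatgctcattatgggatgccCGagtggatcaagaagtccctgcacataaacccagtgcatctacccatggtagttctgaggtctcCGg
Rbp4, intron, chr19:38197413-38197634, - strand: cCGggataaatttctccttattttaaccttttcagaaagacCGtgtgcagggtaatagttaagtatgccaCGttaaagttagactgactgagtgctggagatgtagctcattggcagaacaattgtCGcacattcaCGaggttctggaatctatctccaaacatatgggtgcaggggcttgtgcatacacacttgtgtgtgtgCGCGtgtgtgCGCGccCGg
C4b, start of the coding sequence and of the first intron, chr17:34880700-34880771, - strand: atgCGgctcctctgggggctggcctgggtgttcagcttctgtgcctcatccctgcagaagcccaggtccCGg
Fgb, before the 5′ end, chr3:82853726-82853925, - strand: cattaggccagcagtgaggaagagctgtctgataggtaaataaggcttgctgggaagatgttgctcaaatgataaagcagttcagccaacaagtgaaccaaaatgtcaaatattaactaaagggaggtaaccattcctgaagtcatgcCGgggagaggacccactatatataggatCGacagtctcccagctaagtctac
Afp, before the 5′ end, chr5:90914837-90915028, + strand: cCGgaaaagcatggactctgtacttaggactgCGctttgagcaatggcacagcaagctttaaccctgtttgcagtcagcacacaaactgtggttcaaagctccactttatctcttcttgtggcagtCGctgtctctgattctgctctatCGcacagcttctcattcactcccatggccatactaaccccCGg
Trf, intron, chr9:103115171-103115356, - strand: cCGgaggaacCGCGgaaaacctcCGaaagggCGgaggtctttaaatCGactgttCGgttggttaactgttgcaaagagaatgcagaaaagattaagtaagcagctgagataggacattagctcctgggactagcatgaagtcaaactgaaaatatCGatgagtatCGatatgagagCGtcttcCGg

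The promoters of the plasma protein genes were poor in CpGs and in MspI sites, and most of them could not be read by RRBS. Within 1 kb of the 5′ end, their median was 20 CpG sites and 2 CCGG sites in mm9, against 60 and 6 for 22379 protein-coding genes. Fewer than 3 CCGG sites stood in 22 of the 36 promoters (61.1%), against 31.5% of all protein-coding genes. In these data, 23 of the 36 promoters had no CpG with enough reads in both libraries, 3 had 1 to 4 and 10 could be tested. Among the promoters with no value were those of Alb (serum albumin), Ttr (transthyretin), Hp (haptoglobin), Fga, Fgg, Serpinc1 (antithrombin) and C3. In the RefSeq promoter sequences (GRCm38, 250 bases before to 50 after the start), which matched 28 of the 36 genes, 23 held at most 5 CpG sites (82.1%, against 43.6% of 27025 genes). On either strand of these sequences, the letters TATAAA stood in 5 of 28 (17.9%, against 14.2% of all). The letters TTNNGCAAT of C/EBP stood in those of Afp, C9 and Ahsg (10.7%, against 2.18%). CAAAGTCCA of HNF4 stood in none (0.477% of all), and the HNF1 motif in none (2 of 27025). These 2 exact strings are so rare over all genes that 28 sequences would hardly hold a match. Their absence therefore does not separate these genes from others.

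Promoters that could be read were mostly partly methylated in WT, and 4 of them were lower in KI. A promoter here is the stretch within 1 kb of the 5′ end, its level is the mean over its CpGs, and it is called lower or higher only where 2 tests gave a Benjamini-Hochberg adjusted p under 0.05 over all genes and both levels moved the same way. The first is Fisher's exact test after adding up the reads of the region, and the second the Cochran-Mantel-Haenszel test, stratified by CpG. Of the 10 tested promoters, 4 fell in KI and 0 rose, where 7.45% of the 16515 tested promoters of all genes fell and 1.31% rose. The WT median of the 10 was 26.8%, against 0.982% for all tested promoters, and the median change was -2.61 points, against -0.0531. Without CCGG sites, 6 promoters of the plasma protein genes could be tested and their median change was -10.5 points, against -0.00714 over all genes. At a WT level of 10 to 45%, where 8 of the 10 stood, the median change was -4.93 points and 4 of 8 fell, and over the 1614 promoters of all genes in that range the median was -1.50 points and 19.5% fell.

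Fgb encodes the fibrinogen beta chain. Its promoter was at 39.6% in WT and 26.0% in KI over 14 CpGs with 1419 and 995 reads, a fall of 13.6 points with a counting error of 1.85 (adjusted p = 6.66e-09 by Fisher's exact test, 5.26e-10 by the stratified test). With each strand of a fragment counted once and CCGG sites left out, Fgb had 44.98% in WT and 29.2% in KI and passed neither test on these fewer reads (adjusted p = 0.284, Fisher's exact test). All of these CpGs lie on 1 MspI fragment around the 5′ end, and 12 of the 14 were lower in KI. The largest difference of a single CpG in Fgb was 27 bases after the 5′ end, with 61.3% in WT (95% Wilson interval 50.3 to 71.2) and 32.8% in KI (22.1 to 45.6). The opposite strand of that site had 39.2% in WT and 27.1% in KI.

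C4b encodes complement C4, which becomes part of the C3 convertase of the classical and lectin pathways. Its promoter was at 32.8% in WT and 19.96% in KI over 13 CpGs with 515 and 385 reads, a fall of 12.8 points with a counting error of 2.99 (adjusted p = 8.60e-06, Fisher's exact test). At the CpG directly after the start codon, 59 bases into the gene, 41.9% of 62 reads were methylated in WT (interval 30.5 to 54.3) and 6.78% of 59 in KI (2.67 to 16.2). The opposite strand had 27.0% and 12.5%. The 1 kb window of C4b around the start codon fell from 20.1% to 6.45% over 7 CpGs. C4b has a near-identical neighbour copy in the mouse, and how the reads split between the copies is uncertain.

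F7 and F2, factor VII, which starts coagulation with tissue factor, and prothrombin, showed smaller falls. The F7 promoter was at 17.9% in WT and 12.8% in KI over 8 CpGs (adjusted p = 0.0153, Fisher's exact test). The F2 promoter was at 33.9% in WT and 29.1% in KI over 14 CpGs (adjusted p = 0.0103, Fisher's exact test), and with reads thinned to equal coverage it passed neither test (adjusted p = 0.321, Fisher's exact test). Cfb, factor B of the alternative pathway, had 31.7% in WT and 21.8% in KI over 10 CpGs and passed the stratified test (adjusted p = 0.0134) and not Fisher's exact test (adjusted p = 0.0700). All 10 CpGs lie within the neighbouring gene that overlaps this promoter, and without CCGG sites the Cfb promoter had 42.3% in WT and 19.3% in KI and passed both.

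The other 5 promoters differed by less than a point. Ambp (alpha-1-microglobulin and bikunin) had 25.1% in WT and 24.97% in KI, Itih1 (a heavy chain of the hyaluronan-binding inter-alpha inhibitor) 28.6% and 28.3%, and Hc (complement C5) 20.1% and 19.8%. Rbp4 (the retinol carrier), the member with the most promoter CpGs at 103, had 0.652% and 0.187%. The Trf promoter (transferrin, the iron carrier) had 0 methylated reads of 80 in WT and of 61 in KI over 6 CpGs, which allows levels of up to 3.75% and 4.92%. The 3 promoters with too few CpGs were those of F10, F12 and Ahsg, and F12 (factor XII) had 27.6% and 27.4% over 3 CpGs.

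**Figure D1:**
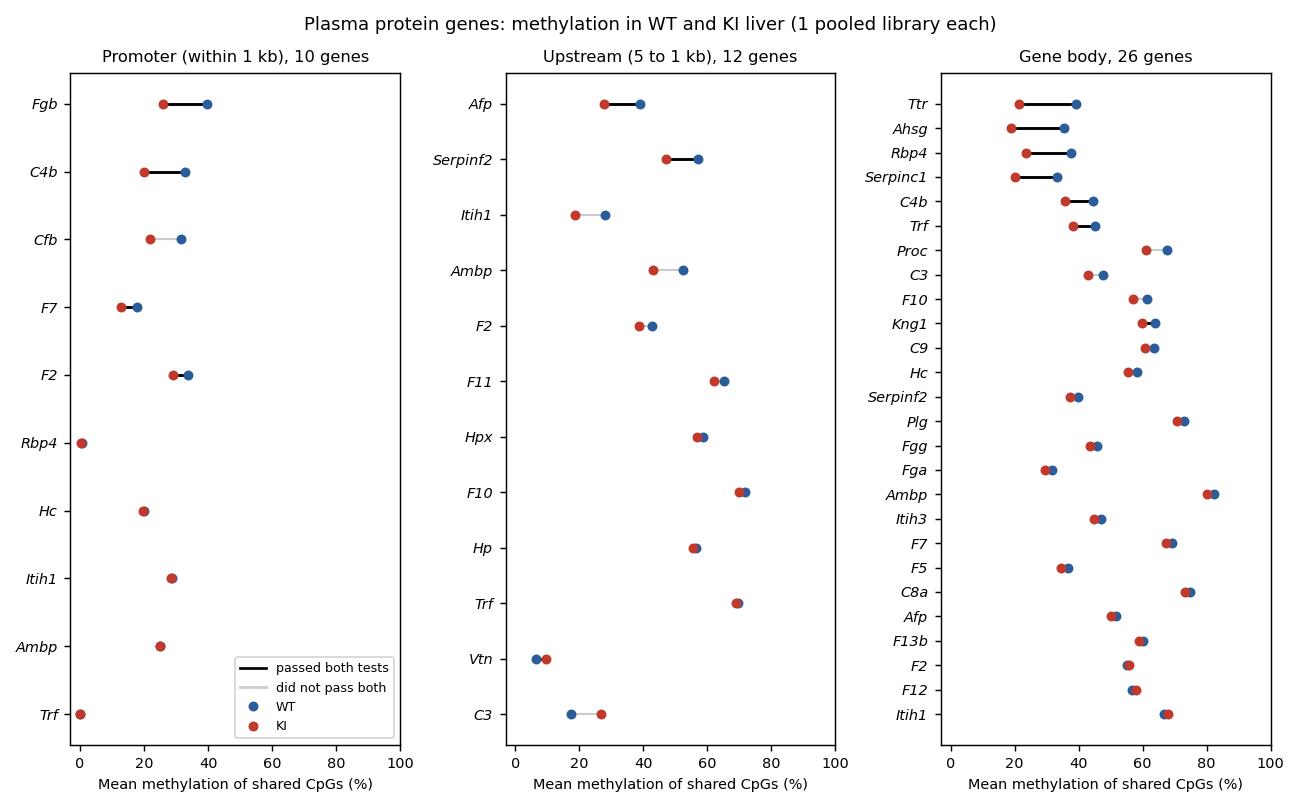
Mean methylation (%) of the shared CpGs, WT in blue and KI in red, for each plasma protein gene with at least 5 of them in the promoter, the stretch 5 to 1 kb upstream, or the gene body, ordered by the change. A black line joins levels that passed both tests and a grey line those that did not. Fgb and C4b have the widest losses among promoters, and Ttr, Ahsg, Rbp4 and Serpinc1 among bodies.

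From 5 to 1 kb upstream, 12 genes could be tested. Of these, 3 fell and 1 rose, where 17.1% of the upstream stretches of all genes fell and 1.21% rose. Afp encodes alpha-fetoprotein, the albumin-like carrier of fetal plasma that is nearly silent in adult liver. Its upstream stretch was at 39.1% in WT and 27.7% in KI over 10 CpGs with 1073 and 993 reads, a fall of 11.4 points with a counting error of 2.24 (adjusted p = 1.49e-09, Fisher's exact test). On the fragment printed above, which carries 6 of them outside CCGG, the plus strand went from 43.3% to 32.8% and the minus strand from 55.4% to 34.7%. The widest single CpG of Afp, at position -4776 from the 5′ end, had 51.6% of 161 reads in WT (interval 43.9 to 59.1) and 24.8% of 153 in KI (18.7 to 32.2).

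The other upstream calls lie in or near neighbouring genes. Serpinf2 (alpha-2-antiplasmin) had 57.0% in WT and 47.1% in KI over 22 CpGs, all of them within an adjoining gene. F10 (factor X) had 71.7% and 70.0% over 20 CpGs, and 16 of these are CpGs of the F7 gene next to it. Vtn (vitronectin, which holds back the terminal complement complex) rose from 6.62% to 9.60% over 67 CpGs with 2712 and 2704 reads (adjusted p = 0.00606, Fisher's exact test), and all 67 lie within 1 kb of the 5′ end of a neighbouring gene. C3, the central complement protein, had 17.5% in WT and 26.9% in KI over 8 CpGs on 1 fragment and passed neither test (adjusted p = 0.229, Fisher's exact test). C3 lies 0.925 Mb from Uhrf1, the targeted gene. At Itih1 the stretch had 28.1% in WT and 18.6% in KI with 91 and 57 reads, and at Ambp 52.4% and 43.0%, and neither passed both tests. The remaining differences were F2 at 42.6% and 38.6%, F11 at 65.2% and 62.0%, Hpx (the heme carrier hemopexin) at 58.6% and 56.7%, Hp at 56.4% and 55.5%, and Trf at 69.6% and 68.9%.

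In gene bodies, from 1 kb after the 5′ end to the gene end, the plasma protein genes fell about as often as other genes, but a few of them fell far. Of 26 tested bodies, 12 fell and 0 rose, where 34.8% of the 15922 tested bodies of all genes fell and 0.785% rose. The median change was -2.46 points, against -1.98 over all genes, and without CCGG sites -4.21 points over 23 bodies, against -2.30. The mean was lower in KI in 23 of 26 bodies (88.5%), against 80.9% of all. In these 26 bodies the wide losses stood at low WT levels. Over all genes they did not, and 6.42% of the bodies at 45 to 60% in WT lost more than 10 points. At 10 to 45% in WT stood 8 bodies, 5 of them fell, 4 lost more than 10 points and their median change was -11.1 points, and over the 2374 bodies of all genes in that range the median was -1.37 points and 3.29% lost more than 10. At 60% and above, the 10 bodies had a median change of -2.28 points, against -2.27 over all genes.

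**Figure D2:**
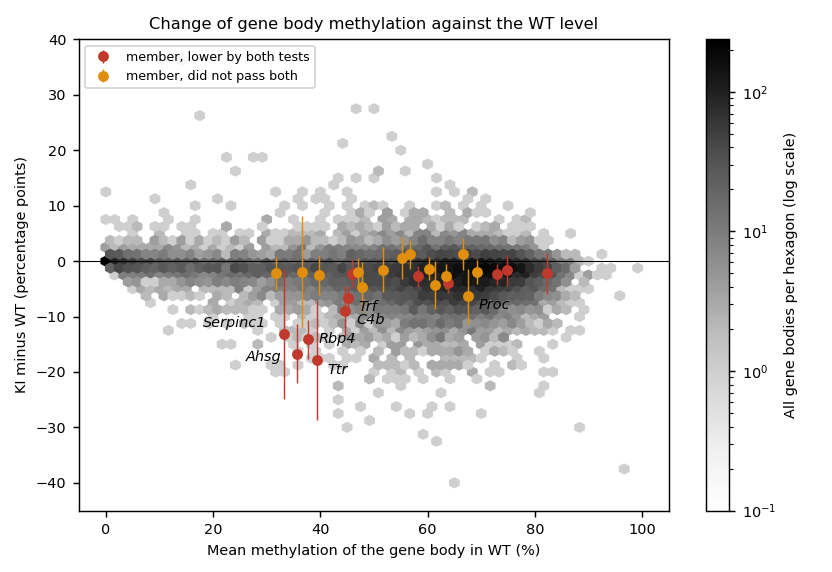
Change of gene body methylation (KI minus WT, percentage points) against the WT level (%), with all tested gene bodies as grey hexagons shaded by their number on a log scale and the plasma protein genes as points. Bars are 95% intervals of counting error. Ahsg, Ttr, Rbp4 and Serpinc1 lie more than 10 points under 0 at WT levels under 40%.

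Among carriers and binders, 4 of 5 tested bodies fell. Ttr, which carries thyroxine and the complex of retinol with Rbp4, was at 39.3% in WT and 21.5% in KI over 11 CpGs. Only 105 and 139 reads covered them, the fall of 17.8 points had a counting error of 5.53 (adjusted p = 0.0426, Fisher's exact test), and with at least 10 reads at a CpG it passed neither test (adjusted p = 0.214). Rbp4 was at 37.7% in WT and 23.6% in KI over 32 CpGs with 1658 and 1237 reads, a fall of 14.1 points with a counting error of 1.82 (adjusted p = 7.20e-07, Fisher's exact test), and 27 of the 32 were lower. With each strand of a fragment counted once and CCGG sites left out, Rbp4 had 65.3% and 48.7% and passed neither test (adjusted p = 0.660, Fisher's exact test). The Rbp4 fragment printed above went from 30.0% to 14.8% on the plus strand and from 41.9% to 19.8% on the minus strand, and all 16 of its CpGs outside CCGG were lower in KI. A second site of Rbp4, 6065 bases into the gene, had 83.6% in WT and 51.9% in KI over both strands, with 37 and 36 reads. At the Rbp4 promoter, in contrast, methylation was near 0 in both libraries.

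Trf was at 45.1% in WT and 38.4% in KI over 94 CpGs with 7446 and 6942 reads (adjusted p = 2.86e-05, Fisher's exact test). With each strand of a fragment counted once and CCGG sites left out, Trf had 52.4% and 47.3% and passed neither test (adjusted p = 0.107, Fisher's exact test). Of its called CpGs, 1 lies in a coding exon 3606 bases into Trf, with 70.4% of 27 reads in WT (interval 51.5 to 84.1) and 8 of 40 reads methylated in KI (10.5 to 34.8%), and its opposite strand had 30.0% and 34.3%. The other 3 lie on the plus strand of the Trf intron fragment printed above, for example 61.8% of 55 reads in WT against 26.1% of 46 in KI at 17595 bases, where the minus strand with 321 and 207 reads had 32.1% and 30.4%. The calls in Trf therefore rest on 1 strand each. Ambp had 82.2% in WT and 80.01% in KI (adjusted p = 0.000409, Fisher's exact test), and Afp, the carrier body that passed neither test, had 51.6% and 50.1%. Alb, with 2 CpGs in its whole locus, had 49.1% in WT and 47.0% in KI.

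Of the fibrinogen chains, Fgg fell from 45.9% to 43.6% (adjusted p = 0.0330, Fisher's exact test) and Fga had 31.7% and 29.5% without passing Fisher's exact test (adjusted p = 0.119). Within Fga the difference sat on 1 intron fragment 7.6 kb into the gene, at 49.7% in WT and 35.0% in KI over 8 CpGs outside CCGG, and all 8 were lower. Fgb had no CpG in its body with enough reads. The 3 genes are neighbours on chromosome 3 and were thus read at different parts, Fgb at the promoter and the other two inside the gene.

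In gene bodies, though not in promoters or upstream stretches, clotting factors had the smallest median change of the 6 roles. It was -1.91 points, close to -2.01 for the binders of hyaluronan and mineral. Of 7 tested clotting factor bodies 1 fell, that of Kng1 (kininogen, the cofactor of contact activation). It went from 63.8% to 59.8% over 18 CpGs (adjusted p = 0.00175, Fisher's exact test). F10 had 61.5% and 57.1%, F7 69.2% and 67.3%, F5 (the cofactor of factor X) 36.6% and 34.7%, and F13b (the carrier subunit of the clot-linking factor XIII) 60.2% and 58.8%. These 4 passed the stratified test (adjusted p = 0.0308, 2.49e-06, 0.0134 and 0.00437) and not Fisher's exact test. F12 had 56.7% in WT and 57.9% in KI and F2 55.1% and 55.6%, and these 2, higher in KI by the mean, did not pass Fisher's exact test (adjusted p = 0.494 and 0.993). On summed reads the change of F12 had the opposite sign, -1.18 points. F11, with 3 CpGs, had 61.2% and 61.1%.

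Among inhibitors and the plasmin system, 2 of 4 tested bodies fell. Serpinc1 (antithrombin, the main inhibitor of thrombin) was at 33.3% in WT and 20.1% in KI over 9 CpGs with 120 and 85 reads, a fall of 13.2 points with a counting error of 6.00 (adjusted p = 0.0400, Fisher's exact test). With the reads of the 2 strands summed before the coverage minimum, 11 sites of Serpinc1 entered, the levels were 34.8% and 32.6%, and the call was lost (adjusted p = 0.242, Fisher's exact test). Plg (plasminogen) fell from 73.0% to 70.6% (adjusted p = 0.0421, Fisher's exact test), and at equal coverage it did not pass (adjusted p = 0.283, Fisher's exact test). Proc (protein C, which inactivates factors V and VIII) had 67.6% and 61.2% and Serpinf2 39.8% and 37.2%, and neither passed Fisher's exact test (adjusted p = 0.138 and 0.379).

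In complement, 3 of 5 tested bodies fell. C4b was at 44.6% in WT and 35.6% in KI over 39 CpGs (adjusted p = 0.0121, Fisher's exact test), and with at least 10 reads at a CpG it had 52.0% and 48.9% and did not pass (adjusted p = 0.0686, Fisher's exact test). Hc fell from 58.2% to 55.5% over 82 CpGs with 12473 and 11518 reads (adjusted p = 0.00132, Fisher's exact test). C8a (a subunit of the membrane attack complex) fell from 74.9% to 73.2% over 71 CpGs (adjusted p = 0.00105, Fisher's exact test). C3 had 47.7% and 43.0% and C9, which forms the pore of that complex, 63.4% and 60.7%, and both passed the stratified test and not Fisher's exact test (adjusted p = 0.0595 and 0.252).

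Ahsg encodes fetuin-A, which keeps calcium phosphate in solution, and it was the most firmly changed of the 36 genes by its adjusted p. Its body was at 35.6% in WT and 18.9% in KI over 25 CpGs with 1955 and 1625 reads, a fall of 16.7 points with a counting error of 2.72 (adjusted p = 7.72e-18, Fisher's exact test). On the Ahsg fragment printed above, the 8 CpGs outside CCGG averaged 46.7% in WT and 27.3% in KI, and all 8 were lower. The plus strand went from 44.1% to 27.2% and the minus strand from 49.4% to 27.5%. Its 2 called CpGs had 52.8% and 26.9% at 1496 bases and 44.6% and 18.8% at 1436 bases. A second window of Ahsg, 3.4 kb into the gene, had 39.96% in WT and 8.14% in KI over 5 CpGs with 46 and 44 reads (adjusted p = 0.00192, Fisher's exact test).

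None of the inter-alpha inhibitor heavy chains was called. Itih1 had 66.6% in WT and 67.9% in KI over 44 CpGs and did not pass Fisher's exact test (adjusted p = 0.287). On summed reads Itih1 had 71.8% and 70.7%, with an adjusted p of 0.0187 by the stratified test, so its direction also turned with the weighting. Itih3 had a mean of 47.0% in WT and 44.9% in KI, but 30.0% and 38.7% on summed reads, so its direction turned with the weight given to each CpG and it was not called. Itih2 had 1 CpG, with 0 methylated reads of 6 in WT and of 7 in KI, which allows levels of up to 50% and 42.9%.

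By distance from the 5′ end, the difference was widest from 1 to 2.5 kb downstream. This stretch is part of the gene bodies, so its CpGs, for example 20 in Rbp4 and 12 in Ahsg, also entered the body results above. There, 9 genes were read at 77 CpGs, which averaged 31.2% in WT and 18.5% in KI. The change of -12.6 points was 40.5% of the WT level. Over the same stretch of all protein-coding genes the levels were 24.9% and 23.8%, a change of -1.10 points or 4.43% of the WT level. From 5 to 10 kb, the plasma protein genes had 54.0% in WT and 51.1% in KI, and beyond 20 kb 69.1% and 66.7%, where all protein-coding genes changed by -1.93 and -2.66 points. This stretch was singled out after the profile was seen, so it carries no test.

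**Figure D3:**
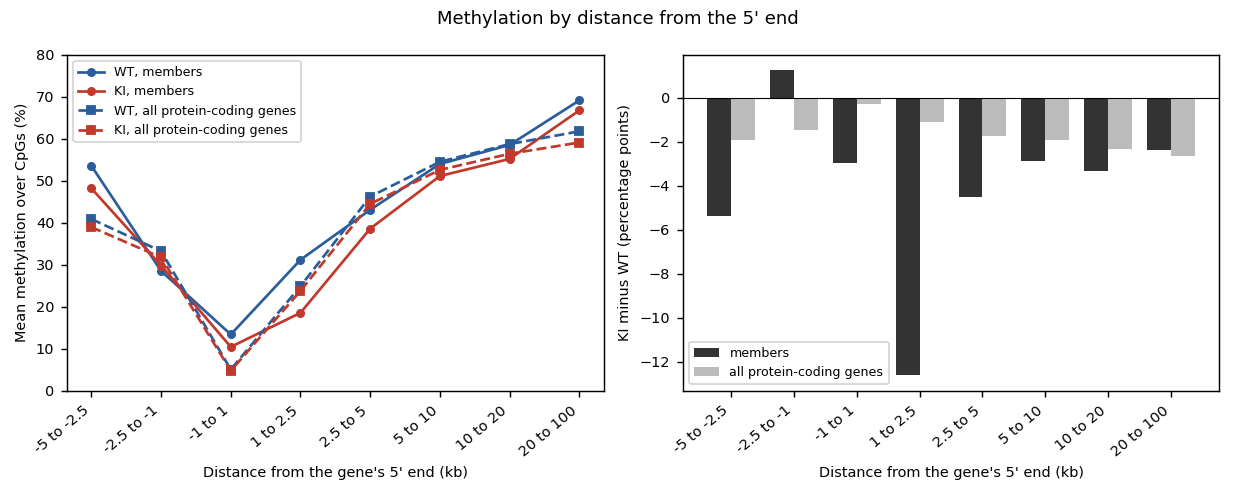
Left, mean methylation (%) over CpGs in 8 classes of distance from the 5′ end (kb), with WT in blue and KI in red, for the plasma protein genes (solid) and all protein-coding genes (dashed). Right, the change in each class, where the black bar of the plasma protein genes reaches -12.6 points from 1 to 2.5 kb.

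Values in that stretch came mostly from 1 fragment per gene, and 4 of the 9 genes differed by more than 10 points. C4b had 45.7% in WT and 7.63% in KI over 4 CpGs with 40 and 47 reads, Serpinc1 34.4% and 13.3% with 87 and 66 reads, Rbp4 32.6% and 15.5% with 856 and 509 reads, and Ahsg 39.5% and 25.7% with 1840 and 1500 reads. Ttr had 22.0% and 14.5%, Afp 27.9% and 20.9%, Cfb 30.3% and 25.1%, Serpinf2 24.1% and 20.1%, and F2 20.5% and 21.3%. The differences of Ttr, Cfb and Serpinf2 were -7.52, -5.16 and -4.05 points with counting errors of 6.10, 3.65 and 2.84. Outside CCGG, Cfb and F2 had 0 CpGs in this stretch, Serpinc1 and Ttr 2 each and C4b 3. Leaving out 1 gene at a time moved the mean change between -11.0 points without Rbp4 and -14.5 points without Serpinf2. Among the 8 genes with at least 4 CpGs there, all at 20 to 50% in WT, 7 lost more than 5 points and 4 more than 10. Of the 943 protein-coding genes with such a stretch and such a WT level, 29.1% lost more than 5 points and 11.6% more than 10.

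**Figure D4:**
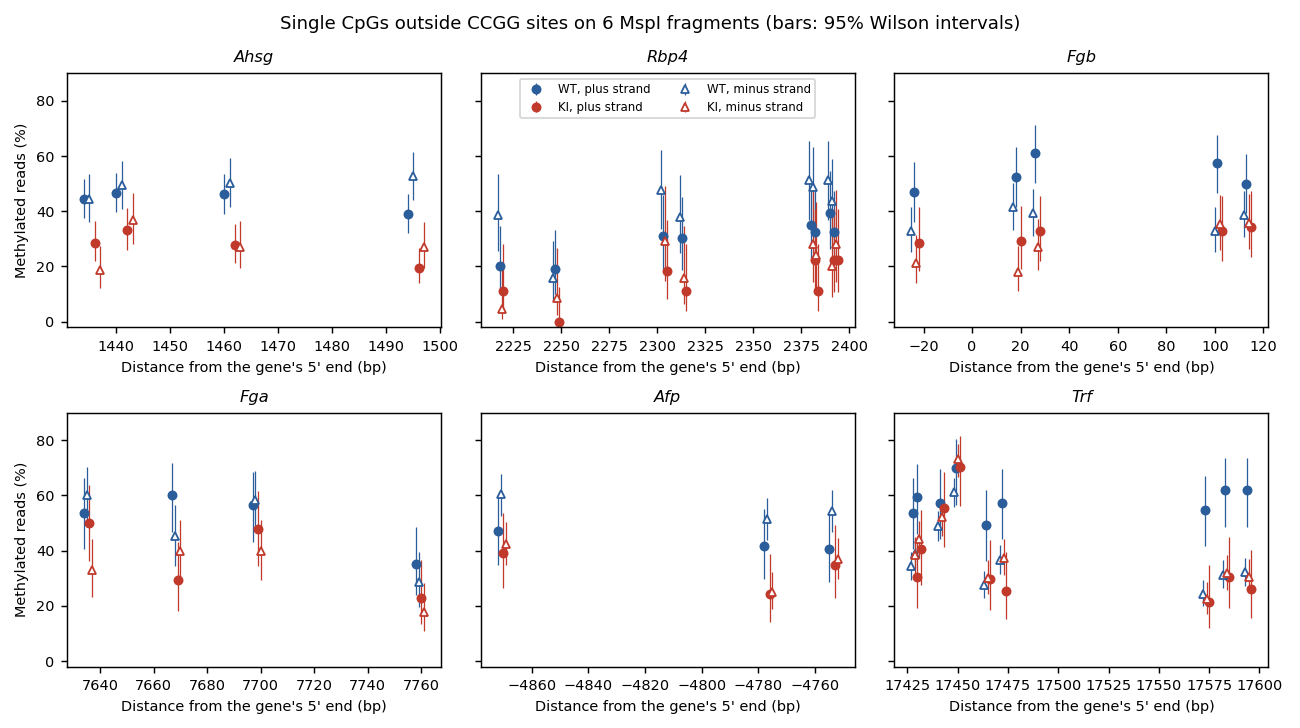
Methylated reads (%) at single CpGs outside CCGG on 6 MspI fragments against the distance from the 5′ end (bp), in WT (blue) and KI (red), on the plus (filled circles) and minus strand (open triangles), with 95% Wilson intervals and the 2 libraries set 1 bp to either side. In Ahsg, Rbp4 and Fga every CpG is lower in KI on both strands, whereas in the Trf intron the minus strands of WT and KI lie close together at most sites.

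By single CpGs and windows these genes were called about as often as the genome as a whole. The 1308 CpGs averaged 45.4% in WT and 42.0% in KI, and the change of -3.47 points compares with -2.96 over all shared CpGs. At an adjusted p under 0.05 by Fisher's exact test and a difference above 25 points, 11 CpGs in 6 genes (Trf, C4b, Fgb, Fga, Afp and Ahsg) were lower, 0.841% of them, where 1.08% of all CpGs were lower. None was higher, where 0.0475% of all were. In 1 kb windows, 25 of 98 fell and 2 rose, against 23.5% and 0.783% of all windows. The windows that rose were that of Vtn described above, 11.8% to 17.3%, and 1 in Afp 13.8 kb into the gene, 53.3% to 63.3% over 8 CpGs (adjusted p = 0.0353, Fisher's exact test). Afp thus held windows that moved in opposite directions. Of 80 fragments with at least 40 reads and 20% in WT, 7 were lower by more than 10 points on both strands (8.75%), where 15.0% of all such fragments were, with no test. These 7 belong to C4b, Cfb, Ahsg, Rbp4, Fga and Afp, and Afp holds 2 of them. A further count took each strand of a fragment once and left out CCGG sites. The promoter of C4b and the upstream stretches of Afp and Hpx were then lower by both tests. So were the bodies of Ahsg, C4b, Serpinc1, C9 and F13b. The shares of all promoters and bodies that fell under that count are given in the last section. The frequency of these calls was not tested against that of other genes. Under that count the Fgb promoter and the bodies of Rbp4, Trf and Ttr passed neither. Also without a call under that count were the F2 and F7 promoters and the upstream stretches of Serpinf2, F10 and Vtn. The same held for the bodies of Ambp, Fgg, Kng1, Plg, Hc and C8a. The Ttr body had 43.9% in WT and 28.4% in KI under that count (adjusted p = 0.408, Fisher's exact test).

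The 2 cytosines of a CpG inside CCGG gave unlike values. In 219 such pairs of these genes, the levels averaged over the higher strand were 64.0% in WT, and over the lower strand 3.68%, where 365 pairs outside CCGG had 57.4% and 48.5%. In RRBS, cytosines filled in at the cut ends during library making are read as unmethylated, and their part in these pairs was not tested. Without CCGG sites, the plasma protein genes averaged 52.6% in WT and 48.3% in KI.

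A second list held 50 other plasma protein genes, and the lists were not tested against each other. Of its 36 tested bodies 8 fell and 0 rose (22.2% lower, where 34.8% of all genes were), the median change was -2.53 points and 0 lost more than 10 points. Of 11 promoters 1 fell (9.09%, against 7.45%), that of Proz (protein Z), from 26.8% to 17.7%. C1ra at 36.2% and 19.2% and Mbl1 at 46.4% and 32.3% had wider differences, on 77 to 353 reads, and were not called. Of 10 upstream stretches 0 fell (against 17.1%). The widest falls among called bodies were C7, from 67.3% to 58.1%, and Serpina10, from 41.9% to 34.9%. Among cell type markers, 1 of 3 hepatocyte promoters fell (Hnf4a, 56.7% to 45.2%) and 2 of 3 bodies (Hnf4a and Cps1). Of blood and Kupffer cell markers, the 1 tested promoter (Cd3e, 65.3% to 48.5%) and the 1 tested body (Ptprc, 61.0% to 47.5%) both fell. Of 3 endothelial bodies all 3 fell by 3.46 points or less, of 3 cholangiocyte bodies 1 fell (Krt19), of 2 stellate cell bodies 0 fell and of 2 stellate cell upstream stretches 1 fell (Pdgfrb), and 0 of 1 endothelial, 0 of 2 cholangiocyte and 0 of 3 stellate cell promoters fell. The shares over all genes given above (7.45%, 17.1% and 34.8%) are the background of these counts. The part of the markers in the losses of the plasma protein genes was not tested.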

How the data were processed

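Liver DNA of 3 pooled males per genotype was measured by RRBS. The authors aligned reads to mm9 by Bismark (0.12.20 in the submitters' notes) and kept unique alignments. They deposited the count of reads per CpG cytosine. The percent of methylated reads was deposited beside it. Read trimming and duplicates are not given in the sources used here.

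Methylated reads were recovered by rounding. CpGs that both libraries covered with 5 reads or more, on assembled chromosomes, were used. Strands came from the mm9 sequence and genes from GENCODE on mm9. For Trf, which has 2 entries, the one without the read-through was used. Regions with at least 5 CpGs were tested as described in the text, with p-values adjusted over all genes, windows or CpGs. Each value has counting error only. The procedure was run on simulated counts drawn for each CpG separately. These held no shared reads, PCR copies or spread between animals, so the run cannot check the p-values against them.

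Genes with a called region, the 5 widest losses and gains of each kind, the 10 widest called CpG losses and the 5 widest window changes were named. The members and lists (50 other plasma protein genes and markers of hepatocytes, cholangiocytes, stellate cells, endothelium, and blood with Kupffer cells) were chosen with earlier results of these data known. Alternatives varied coverage (10 and 20 reads), CpGs per region (10), promoter width (500 bp), strands, CCGG sites, weighting, neighbouring genes and the tests. Counting each fragment strand once, and the stretch from 1 to 2.5 kb, were added after seeing the data. Scripts ran in Python 3.11.15 (scipy 1.17.1, numba 0.67.0, pandas 2.3.3, numpy 2.4.6, matplotlib 3.10.9).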

Additional observations from a re-analysis of the deposited data

How the results depend on the processing

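No paired analysis was possible because each genotype is 1 pooled library. Depth limits the Ttr and Serpinc1 bodies, with fewer than 150 reads per library. Where they were computed, the medians and means of promoters, upstream stretches and bodies stayed below 0, but sizes moved. They were not computed with each strand of a fragment counted once, for either test alone or with at least 10 CpGs per region. With each strand of a fragment counted once and CCGG sites left out, 1 promoter (C4b) and 5 bodies (F13b, Serpinc1, C9, Ahsg and C4b) fell. Over all genes, 1.32% of promoters and 21.1% of bodies fell under that count. The upstream stretches of Afp and Hpx also fell, with no share over all genes given, and 0 upstream stretches rose. There 14 of the 20 named regions with a call lost it, among them Fgb with 44.98% in WT and 29.2% in KI. The Ambp body turned to +0.875 points, also without a call. By the Cochran-Mantel-Haenszel test alone, 21 bodies and 5 upstream stretches fell (51.0% and 29.3% of all genes), and by Fisher's exact test alone 1 body, Itih3, rose. A limit of 10 points called 28 CpGs lower, summing strands 3 and equal coverage 5. In windows, 1 rose with strands summed, at equal coverage and at 10 and 20 reads. Shares over all CpGs and windows were not computed under these settings, so these counts stand without a background. At 10 reads the promoter median was -4.93 points, against -2.61 at 5. Without CCGG sites, the median and mean change were -10.5 and -10.4 points in promoters, -10.2 and -7.02 upstream and -4.21 and -6.04 in bodies, and -16.2 from 1 to 2.5 kb (medians over all genes -0.00714, -1.35 and -2.30), and Ttr was not called (adjusted p = 0.0729 by Fisher's exact test). At 20 reads C4b had a body change of -2.47 points and was not called, and the Ambp upstream stretch fell at 10 and 20 reads (-12.5 and -12.1 points). The cause of these shifts was not tested.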
